A study of Mus musculus with 20 samples.

Results

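The 10 genes described here are known targets of the glucocorticoid receptor in brain: Tsc22d3, Klf9, Zbtb16, Hif3a, Sgk1, Errfi1, Ddit4, Pdk4, Mt1 and Mt2. All named genes are described, whether or not they differed, and they make up 10 of the 55536 gene rows of the count table. All 10 passed the filter on low counts and were among the 16419 genes tested. RNA sequencing had measured the hippocampus of male mice with the strain label C57BL/6J, aged 12 weeks, on day 7 after 1 intraperitoneal injection. The 4 groups held 5 libraries each: Fkbp5 knockout (KO) mice given 3 mg/kg lipopolysaccharide (LPS, from the outer membrane of Gram-negative bacteria), KO mice given saline, wild-type (WT) mice given LPS, and WT mice given saline. The labels name no glucocorticoid treatment, do not say how the knockout was made or in which cells it acts, and do not say whether each replicate is a separate animal, so p-values measure the spread between these libraries.

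The glucocorticoid receptor (gene Nr3c1) sits in the cytoplasm bound to HSP90 and its co-chaperones, and after binding corticosterone it moves to the nucleus and switches on genes that carry its response element. FKBP5 is one of those co-chaperones. It lowers the affinity of the receptor for hormone, and its own gene is a receptor target, which closes a negative feedback loop. In the hippocampus, which is rich in the receptor and in the related mineralocorticoid receptor, the 10 genes serve as readouts of hormone action in neurons and glia. A comparison of KO with WT mice therefore asks whether these readouts sat at another level without the normal amount of FKBP5, and the LPS groups ask the same after an inflammatory stimulus.

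Total counts per library were 16652992 to 27230202. Replicates 1 and 2 of each group and replicates 3 to 5 of each group formed separate library sets, and 64.3% of tested genes differed between the sets. Comparisons within sets are given after the pooled ones. Markers of the tissue were present in every library: the pyramidal neuron gene Neurod6 stood at 115 to 295 CPM (library-scaled counts, with edgeR's TMM factors) and the dentate granule cell gene Prox1 at 93.9 to 179 CPM. Of 8 choroid plexus markers, Kcnj13 stood at 0 to 1.03 CPM and Folr1 at 0.0406 to 2.45 CPM, whereas Kl stood at 13.7 to 44.5 CPM and Ttr at 6.13 to 97.3 CPM. Their sum was 28.0 to 119 CPM in KO LPS, 35.2 to 133 CPM in KO saline, 24.1 to 87.9 CPM in WT LPS and 28.5 to 78.2 CPM in WT saline libraries, and its part in the results was not tested. KO LPS replicate 1 and WT LPS replicates 1 and 4 held the most RNA of neighbouring thalamus. The summed level of 10 thalamus markers reached 157 CPM in KO LPS and 188 CPM in WT LPS libraries, against at most 124 CPM in KO saline and 110.1 CPM in WT saline libraries. Without those libraries none of the 10 genes passed the test in any comparison either (edgeR fit of 17 libraries, smallest unadjusted p = 0.0402 and adjusted p = 0.803). The WT LPS median was 139 CPM, so the libraries kept in that fit still included a WT LPS library above every saline library. That fit therefore lowers the difference in thalamus RNA without removing it. In bulk tissue, fewer cells of a type and less RNA per cell cannot be told apart.

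Fkbp5 itself, the check of the genotype labels, was lower in every KO library than in any WT library, at 46.5% of the WT level over both treatments (95% interval 41.5 to 52.2%). Which part of the gene the knockout removes is not given in the labels, so the remaining counts say nothing about the protein. None of the 10 target genes lies on chromosome 17, which holds Fkbp5.

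Start-site sequences are shown where they hold letters of the receptor's known response element. The classical glucocorticoid response element is a palindrome of the arm AGAACA, any 3 bases and the arm TGTTCT, in which each arm binds 1 receptor of a dimer. Of the 10 genes, 9 had start-site windows in RefSeq (GRCm38.p6, 17 windows of 300 bases, from 250 bases before to 50 after each start), and Zbtb16 had none. The exact palindrome, read on both strands, was found in 3 of 32841 mouse windows (0.00913%). Among the 17 windows it occurred in 1, at Sgk1, beginning at position -189 (the start base is 0), and a further arm lay at -242. The single arm TGTTCT, which the palindrome also contains, was far more common, in 19.0% of all windows. Among the 17 windows it occurred in 4, which belong to 2 genes, Sgk1 (3 of its 6 windows) and Tsc22d3. In both sequences the capitals mark the arms. The Sgk1 window is chr10:21993640-21993939 on the plus strand, and the Tsc22d3 window is chrX:140600473-140600772 on the minus strand.
Sgk1: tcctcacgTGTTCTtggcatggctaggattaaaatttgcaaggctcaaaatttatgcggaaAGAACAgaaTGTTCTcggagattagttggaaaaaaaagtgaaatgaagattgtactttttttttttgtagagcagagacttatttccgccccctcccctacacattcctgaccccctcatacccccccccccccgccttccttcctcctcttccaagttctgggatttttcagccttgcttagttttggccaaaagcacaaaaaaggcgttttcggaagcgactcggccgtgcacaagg
Tsc22d3: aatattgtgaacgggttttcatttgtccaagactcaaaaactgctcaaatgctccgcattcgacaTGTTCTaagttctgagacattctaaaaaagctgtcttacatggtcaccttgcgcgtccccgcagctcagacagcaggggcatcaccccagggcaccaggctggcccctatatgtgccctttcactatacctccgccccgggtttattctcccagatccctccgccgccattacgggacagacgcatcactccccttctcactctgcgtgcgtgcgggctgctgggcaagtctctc

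The metallothionein genes are shown for a different element. Their known metal response motif, bound by the zinc-sensing factor MTF1, was searched as TGCACNC and TGCGCNC on both strands. A match occurred in 25.7% of all windows, and 3 or more matches in 1.97%. Among the 10 genes, which had 17 windows in all, 5 had a match, each in a single window (Sgk1, Hif3a, Mt1, Mt2 and Ddit4). The count of genes is not on the same scale as the share of windows. The Mt1 window (chr8:94178839-94179138, plus strand) held 3 matches and the Mt2 window (chr8:94172368-94172667, plus strand) held 4, marked in capitals, while neither held the arm TGTTCT. A match describes the letters of the window and not binding in hippocampus, and these windows do not cover distal enhancers.
Mt1: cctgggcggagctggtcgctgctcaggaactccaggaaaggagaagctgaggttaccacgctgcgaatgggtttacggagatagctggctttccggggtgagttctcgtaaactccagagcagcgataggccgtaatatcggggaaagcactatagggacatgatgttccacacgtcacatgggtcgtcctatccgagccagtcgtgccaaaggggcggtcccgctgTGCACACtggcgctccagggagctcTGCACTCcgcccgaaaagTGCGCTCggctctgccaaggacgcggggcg
Mt2: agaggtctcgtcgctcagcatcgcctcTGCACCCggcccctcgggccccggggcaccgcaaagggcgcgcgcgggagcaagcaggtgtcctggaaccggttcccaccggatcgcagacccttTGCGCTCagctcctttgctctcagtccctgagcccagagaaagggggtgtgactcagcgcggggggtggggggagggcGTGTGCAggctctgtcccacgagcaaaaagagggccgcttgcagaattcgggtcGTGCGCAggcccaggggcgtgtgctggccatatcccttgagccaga

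Levels between genes are compared per kilobase of exon. Mt1 was highest, at a mean of 241 CPM per kb over the 20 libraries (range 149 to 320), followed by Klf9 at 49.4 and Ddit4 at 40.1 CPM per kb. Sgk1 (16.02), Tsc22d3 (13.7) and Errfi1 (12.9 CPM per kb) formed a middle group whose ranges overlapped. Mt2 stood at 9.72, Zbtb16 at 6.92, Pdk4 at 2.92 and Hif3a at 0.711 CPM per kb. Every library of the higher gene lay above every library of the next gene at only 3 of the 9 steps, from Mt1 to Klf9, from Ddit4 to Sgk1 and from Zbtb16 to Pdk4. At the other 6 steps the libraries of the neighbours overlapped, by little from Pdk4 (lowest library 1.43 CPM per kb) to Hif3a (highest 1.46). The order was the same with the longest transcript in place of all exons, and without TMM scaling. Neither choice touches the overlap of Mt2 exons with an antisense gene (73.5% of its exon bases). The effect of that overlap on the level and rank of Mt2 was not tested.

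**Figure D1:**
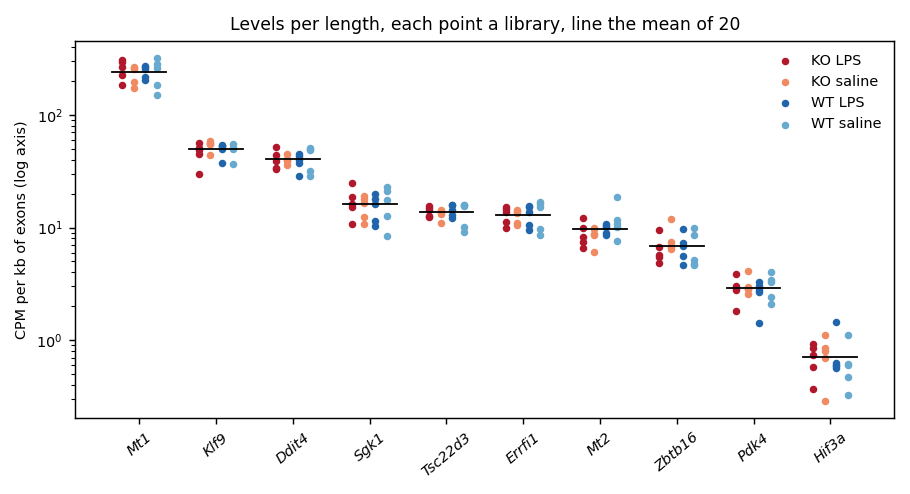
Level of each target gene per kilobase of exon (y axis, CPM per kb, log scale), each point a library, coloured by group from KO LPS to WT saline, with a line at the mean of 20 libraries. Mt1 lies above all other genes and Hif3a lies lowest, and within each gene the 4 groups overlap.

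The relative spread was smallest for Tsc22d3 (coefficient of variation 14.6% over all 20 libraries) and Klf9 (15.1%), and largest for Hif3a (40.7%), whose highest library was 5.01 times its lowest. Hif3a rested on 37 to 249 counts per library, Mt2 on 62 to 205 and Pdk4 on 127 to 339, while Mt1 had 4024 to 7712 counts and Klf9 3734 to 7495, so the first 3 genes carry the larger counting error.

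Values by library follow in order of replicate, 1 to 5, as CPM, and positions are those of the whole gene in mm10. All 10 genes are protein coding. The transcription regulators come first. Tsc22d3 (ENSMUSG00000031431, chromosome X, 140539528 to 140600659) encodes GILZ, a leucine zipper protein that restrains NF-kB and AP-1 and carries part of the anti-inflammatory action of glucocorticoids. Tsc22d3 had 62.5, 55.3, 53.7, 65.1 and 67.8 CPM in KO LPS libraries and 57.2, 47.3, 60.6, 62.3 and 57.9 CPM in KO saline libraries. In WT LPS libraries Tsc22d3 had 52.8, 55.9, 68.1, 68.8 and 61.9 CPM, and in WT saline libraries 44.1, 39.4, 69.3, 68.3 and 67.05 CPM. The lowest libraries were the first pair of WT saline, and the 4 groups overlapped over both library sets, with a KO against WT log2 fold change over both treatments of -0.014 ± 0.10 (SE).

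Klf9 (ENSMUSG00000033863, chromosome 19, 23141226 to 23168134) encodes a Krüppel-like factor that responds to glucocorticoids and thyroid hormone in hippocampal neurons. Klf9 had 144, 218, 269, 242 and 236 CPM in KO LPS libraries and 271, 209.5, 263, 262 and 281 CPM in KO saline libraries. WT LPS libraries held Klf9 at 179, 260.1, 241, 255 and 255 CPM, and WT saline libraries at 176, 267, 245, 241 and 243 CPM. Replicate 1 was the lowest library in 3 of the 4 groups, and the groups overlapped. The KO LPS group, which holds the lowest library, had the lowest mean, 222 ± 46.9 CPM (SD, n = 5), against 257 ± 27.8 CPM in KO saline, a log2 fold change of -0.22 ± 0.15 (SE) that shrank to -0.095 without KO LPS replicate 1.

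Zbtb16 (ENSMUSG00000066687, chromosome 9, 48654297 to 48836222) encodes PLZF, a zinc finger repressor of transcription. In KO LPS libraries Zbtb16 was at 25.4, 49.99, 29.1, 35.3 and 30.2 CPM, and in KO saline libraries at 62.2, 39.0, 35.7, 33.8 and 36.3 CPM. In WT LPS libraries it was at 38.2, 51.3, 36.0, 29.4 and 24.8 CPM, and in WT saline libraries at 45.5, 52.2, 24.8, 27.2 and 25.2 CPM. Its highest value was KO saline replicate 1, and within replicates 3 to 5 the KO saline libraries all lay above the WT saline libraries, whereas replicates 1 and 2 overlapped.

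Hif3a (ENSMUSG00000004328, chromosome 7, 17031507 to 17062427) encodes a hypoxia-inducible factor subunit, some forms of which oppose HIF-1. Hif3a had 5.72, 2.47, 3.93, 6.27 and 4.95 CPM in KO LPS libraries, and 7.46, 1.96, 5.39, 4.67 and 5.69 CPM in KO saline libraries. For WT mice Hif3a had 9.82, 3.94, 4.25, 4.02 and 3.78 CPM after LPS, and 7.54, 4.01, 3.20, 2.19 and 4.10 CPM after saline. Replicate 1 was the highest library in KO saline, WT LPS and WT saline. The LPS against saline log2 fold change in WT, 0.30 ± 0.37 (SE), was -0.08 without WT LPS replicate 1, which is also a library with high thalamus markers.

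Among the genes of cell signalling, Sgk1 (ENSMUSG00000019970, chromosome 10, 21882184 to 21999903) encodes a serum and glucocorticoid regulated kinase that acts on ion channels and transporters. Sgk1 had 52.8, 74.6, 91.2, 79.3 and 123 CPM in KO LPS libraries and 61.3, 52.3, 81.6, 88.1 and 92.7 CPM in KO saline libraries. WT LPS libraries held Sgk1 at 50.8, 56.6, 87.4, 79.2 and 97.7 CPM, and WT saline libraries at 41.5, 62.3, 85.7, 103 and 111 CPM. In all 4 groups each library of replicates 1 and 2 lay below each library of replicates 3 to 5, while the groups overlapped.

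Errfi1 (ENSMUSG00000028967, chromosome 4, 150853919 to 150868892) encodes MIG6, a feedback inhibitor of the EGF receptor. Errfi1 had 35.5, 51.8, 49.6, 40.4 and 54.0 CPM in KO LPS libraries and 37.7, 39.7, 50.5, 48.0 and 51.6 CPM in KO saline libraries. Its WT values were 34.2, 37.3, 55.2, 49.2 and 54.1 CPM after LPS, and 30.6, 34.8, 60.2, 58.1 and 54.4 CPM after saline. Apart from replicate 2 of KO LPS, replicates 1 and 2 were below replicates 3 to 5, and group means lay between 45.5 and 47.6 CPM.

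Ddit4 (ENSMUSG00000020108, chromosome 10, 59949669 to 59951834) encodes REDD1, a stress-induced inhibitor of mTORC1. Ddit4 had 68.6, 90.6, 58.8, 57.6 and 77.0 CPM in KO LPS libraries and 62.5, 78.0, 70.1, 71.3 and 68.4 CPM in KO saline libraries. The WT LPS libraries had 50.4, 65.6, 69.3, 75.6 and 79.1 CPM of Ddit4, and the WT saline libraries 50.1, 55.6, 88.5, 87.2 and 85.03 CPM. The group means, 70.5 ± 13.7 CPM in KO LPS, 70.04 ± 5.59 in KO saline, 68.0 ± 11.2 in WT LPS and 73.3 ± 18.8 in WT saline (SD, n = 5 each), differed by less than their spread.

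Pdk4 (ENSMUSG00000019577, chromosome 6, 5483351 to 5496309) encodes a kinase that switches off pyruvate dehydrogenase and so spares glucose. In KO mice Pdk4 had 6.41, 10.2, 10.7, 13.7 and 9.84 CPM after LPS, and 8.94, 14.4, 10.1, 10.04 and 10.3 CPM after saline. In WT mice it had 5.01, 10.7, 11.6, 9.72 and 9.39 CPM after LPS, and 7.40, 8.53, 14.1, 11.6 and 12.1 CPM after saline. The lowest libraries were replicate 1 of KO LPS and of WT LPS, and the 4 groups overlapped over both library sets.

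The metallothioneins bind zinc and copper and are induced by metals as well as by glucocorticoids. Mt1 (ENSMUSG00000031765, chromosome 8, 94179082 to 94180327) had 279, 227, 382, 332 and 368 CPM in KO LPS libraries and 215, 244, 328, 317 and 325 CPM in KO saline libraries. The WT LPS libraries had 268, 252, 334, 318 and 333 CPM of Mt1, and the WT saline libraries 227, 186, 398, 323 and 355 CPM. In every group replicates 1 and 2 lay below replicates 3 to 5, and the KO and WT ranges overlapped within each set.

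Mt2 (ENSMUSG00000031762, chromosome 8, 94172664 to 94173568) had 7.14, 4.35, 5.78, 4.85 and 3.89 CPM in KO LPS libraries and 5.76, 5.11, 5.82, 5.05 and 3.54 CPM in KO saline libraries. It had 6.11, 5.88, 6.32, 5.22 and 5.02 CPM in WT LPS libraries, and 5.90, 4.47, 10.9, 6.27 and 6.91 CPM in WT saline libraries. The highest value, WT saline replicate 3, stood alone, and the other libraries overlapped. Per length, Mt1 exceeded its neighbour Mt2 by 17.2 to 44.7 times (median 24.5). Mt2 shares 73.5% of its exon bases with the antisense gene Gm45774 (2 to 25 counts per library, against 62 to 205 for Mt2), and the strand setting of the counting is not given in the sources used here, so reads of the pair may not be told apart and the effect on the Mt2 level was not tested.

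**Figure D2:**
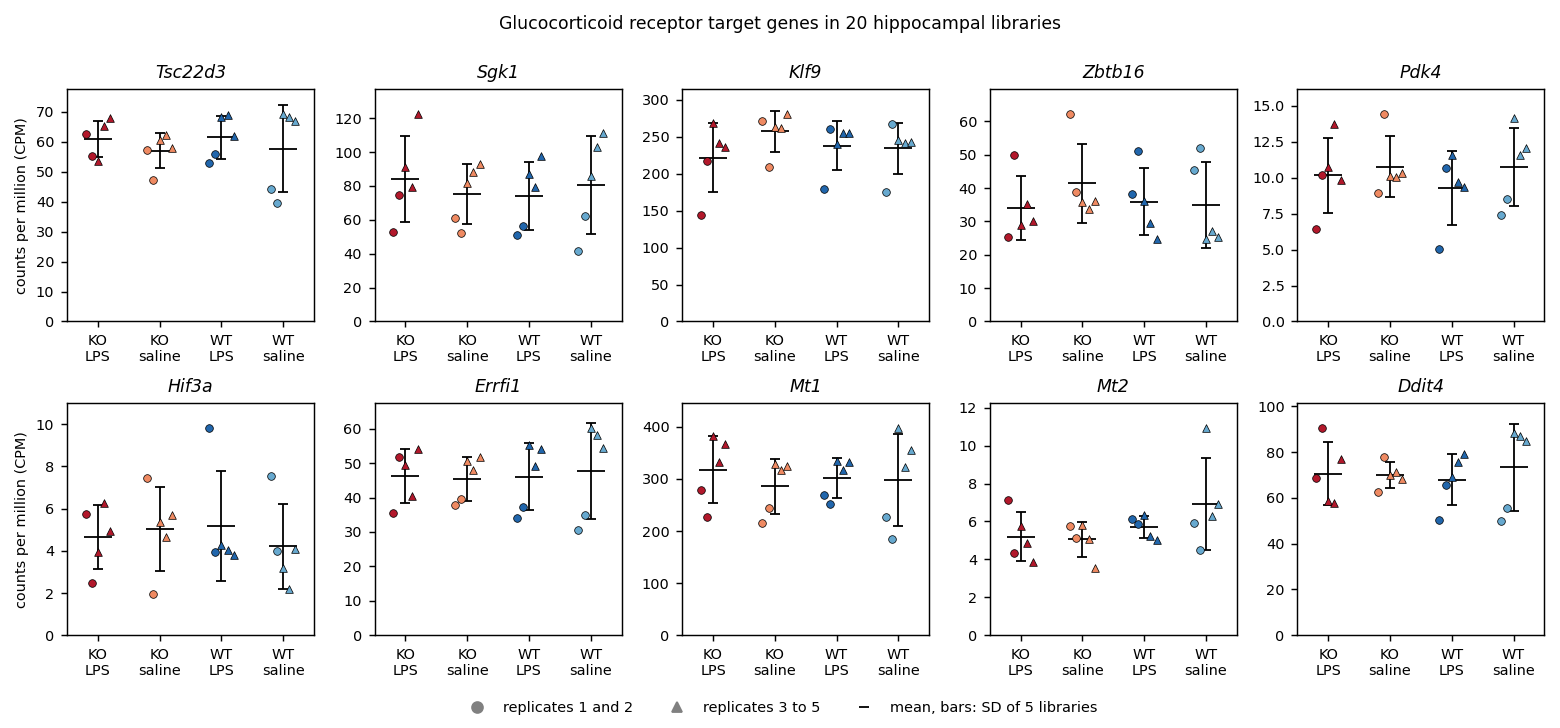
Level of each target gene (y axis, CPM, from 0) in the 20 libraries by group, from KO LPS on the left to WT saline on the right; circles are replicates 1 and 2, triangles replicates 3 to 5, lines the group mean with bars for the SD of 5 libraries. Groups overlap for every gene, and for Sgk1 and Mt1 the circles lie below the triangles in each group.

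The first comparison asked whether LPS left a trace in these genes on day 7. None of the 10 genes passed edgeR's quasi-likelihood test, with p-values adjusted by Benjamini and Hochberg's method and a threshold of 0.05. This held in KO mice, where 0.00609% of tested genes passed, in WT mice, where 0% passed, and over both genotypes, where 0.0426% passed. At an unadjusted p under 0.05 there were also 0 of 10 in each, beside 1.75% of tested genes in KO, 2.07% in WT and 2.71% over both, and DESeq2 and limma-voom called 0 as well. Over both genotypes the estimates ran from -0.15 ± 0.16 (SE) for Pdk4 to 0.094 ± 0.10 for Tsc22d3 on the log2 scale, with a median of -0.031 for the 10 genes and -0.0019 for all genes tested. In KO mice the lowest estimate was -0.28 ± 0.25 for Zbtb16 (-0.47 without KO LPS replicate 2, -0.090 without KO saline replicate 1) and the highest 0.16 ± 0.26 for Sgk1 (-0.015 without KO LPS replicate 5, 0.29 without KO LPS replicate 1). In WT mice they ran from -0.27 ± 0.21 for Mt2 (-0.041 without WT saline replicate 3) to 0.30 ± 0.37 for Hif3a (-0.079 without WT LPS replicate 1, 0.62 without WT saline replicate 1).

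The second comparison asked whether these genes differed in the Fkbp5 knockout. Again 0 of 10 passed edgeR, after saline (0.171% of tested genes passed), after LPS (0.146%) and over both treatments (0.439%), and DESeq2 and limma-voom called 0. At an unadjusted p under 0.05, 2.67% of tested genes passed after saline, 3.27% after LPS and 4.79% over both treatments. The single estimate among the 10 genes to do so was Mt2 after saline, at 5.06 ± 0.919 CPM in KO and 6.90 ± 2.43 CPM in WT libraries (SD, n = 5 each). Its log2 fold change was -0.44 ± 0.21 (SE, 95% interval -0.88 to -0.0056, edgeR unadjusted p = 0.0474, adjusted p = 1). In limma-voom its adjusted p was 0.0688, also above the threshold. With 1 library left out at a time the edgeR estimate ran from -0.57 to -0.21. The value of -0.21 was without WT saline replicate 3, the library at 10.9 CPM. With groups split by set the Mt2 estimate was 0.069 ± 0.29 in replicates 1 and 2 and -0.74 ± 0.24 in replicates 3 to 5 (edgeR unadjusted p = 0.00694, adjusted p = 0.374). After LPS the Mt2 estimate was -0.13 ± 0.21, and over both treatments -0.29 ± 0.15 (edgeR unadjusted p = 0.0667, adjusted p = 1). The other 9 genes lay between -0.029 and 0.081 over both treatments, with a median of all 10 at 0.013 against -0.011 for all genes tested. The change of the LPS effect with genotype (the interaction) was likewise not called for any of the 10 genes, with 0% of tested genes called and 0 of 10 at an unadjusted p under 0.05 beside 1.11% of tested genes. Its estimates ran from -0.41 ± 0.52 for Hif3a to 0.31 ± 0.30 for Mt2.

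The intervals say what the fit of 4 group means could have missed. That fit has no term for the library set, so differences between the sets count as spread. For Sgk1 the pooled SD of log2 CPM was 0.46 within groups and 0.24 within groups and sets. For Hif3a these were 0.63 and 0.62. Intervals from a fit with the set are not given here. Of the 40 estimates in the 4 comparisons of single groups, 38 had a 95% interval within a log2 change of 1 in either direction, and 25 had one within 1.5-fold. The exceptions at the first bound were both of Hif3a, with upper bounds of 1.07 for LPS in WT and 1.02 for KO after saline. Over both treatments or both genotypes all 20 intervals lay within a log2 change of 1, and 17 within 1.5-fold. For Tsc22d3 the KO against WT interval over both treatments was -0.23 to 0.20, for Klf9 -0.21 to 0.24, and for Sgk1 -0.35 to 0.42. No gene's libraries separated completely between groups in any of the 4 comparisons, beside 0.39% of all tested genes for LPS in KO, 0.445% for LPS in WT, 0.737% for KO after saline and 0.828% for KO after LPS.

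**Figure D3:**
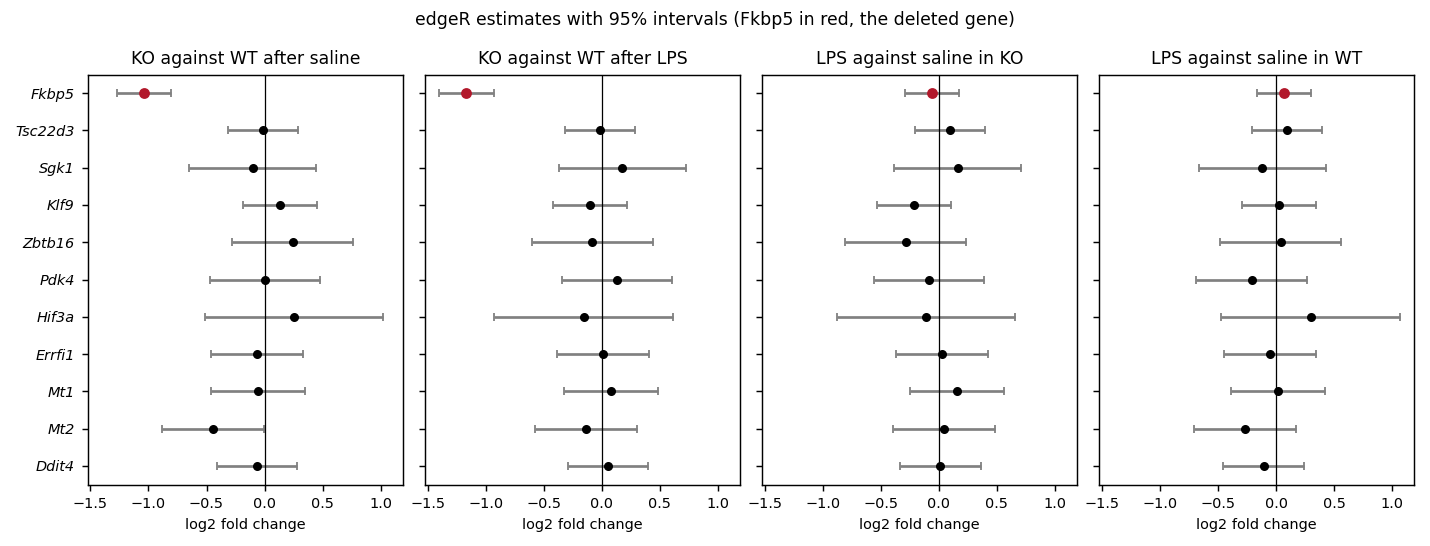
Log2 fold change (x axis) with its 95% interval for Fkbp5 (red) and the 10 target genes (black) in the 4 comparisons of single groups, from edgeR. The Fkbp5 intervals in KO against WT have upper bounds of -0.81 after saline and -0.93 after LPS, while those of the target genes include 0 except for Mt2 after saline.

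The library sets separated several of the target genes. With the group in the model, 6 of the 10 genes differed between replicates 1 and 2 and replicates 3 to 5 (edgeR adjusted p under 0.05), a share close to the 64.3% of all tested genes. Sgk1 stood at 56.5 ± 9.79 CPM in replicates 1 and 2 (SD, n = 8) and 93.3 ± 13.3 CPM in replicates 3 to 5 (n = 12), a log2 difference of -0.72 ± 0.10 (SE). Mt1 (-0.53 ± 0.066), Errfi1 (-0.47 ± 0.085), Tsc22d3 (-0.31 ± 0.073) and Klf9 (-0.23 ± 0.089) were also lower in replicates 1 and 2, and Zbtb16 (0.57 ± 0.12) was higher. Marker levels moved with the sets: the summed level of 7 pyramidal neuron markers was 829 to 1303 CPM in replicates 1 and 2 and 1444 to 1788 CPM in replicates 3 to 5, and that of 10 astrocyte markers 2810.3 to 4637 CPM and 4774 to 5686 CPM. Their part in the differences of the target genes was not tested.

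Within the sets, the genotypes could be compared again. In replicates 3 to 5 alone (6 KO and 6 WT libraries), Ddit4 fell to 67.2 ± 7.56 CPM in KO, against 80.8 ± 7.49 CPM in WT (SD, n = 6 each), or -0.27 on the log2 scale (edgeR adjusted p = 0.0124). Hif3a rose, with 5.15 ± 0.82 CPM in KO and 3.59 ± 0.78 CPM in WT (0.53 on the log2 scale, edgeR adjusted p = 0.0376), and so did Zbtb16, with 33.4 ± 3.04 CPM in KO and 27.9 ± 4.37 CPM in WT (0.26, edgeR adjusted p = 0.0455). These 3 of 10 genes stand beside 8.1% of all genes tested in that set. After saline alone, Zbtb16 was the only one of the 10 to pass, with 35.7, 33.8 and 36.3 CPM in KO and 24.8, 27.2 and 25.2 CPM in WT libraries (0.45, edgeR adjusted p = 0.0307), where 3.22% of tested genes passed. When all 20 libraries shared 1 estimate of the spread, with the 4 groups split by set, none of these calls held in replicates 3 to 5. Over both treatments, where 0.932% of tested genes passed, Ddit4 had -0.26 ± 0.092 (SE, edgeR adjusted p = 0.21), Hif3a 0.53 ± 0.32 (adjusted p = 0.532) and Zbtb16 0.26 ± 0.15 (adjusted p = 0.513). After saline, where 0.183% passed, Zbtb16 had 0.45 ± 0.21 (edgeR unadjusted p = 0.0489, adjusted p = 0.56). In the same libraries the summed level of 9 meningeal markers was 94.98 to 177 CPM in KO and 66.7 to 111 CPM in WT, and that of 7 microglial markers 359 to 449 CPM in KO and 414 to 503 CPM in WT, and their part was not tested.

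In replicates 1 and 2 alone (4 KO and 4 WT libraries) none of the 10 genes passed edgeR over both treatments, with 0.0564% of tested genes called, and the Ddit4 estimate was 0.46 (unadjusted p = 0.0208, adjusted p = 0.757). Ddit4 was at 74.9 ± 12.3 CPM in KO and 55.4 ± 7.23 CPM in WT (SD, n = 4 each), the opposite order to replicates 3 to 5. In the same fit with groups split by set, the Ddit4 estimate was 0.43 ± 0.11 (SE) in replicates 1 and 2 (edgeR adjusted p = 0.0892, beside 0.548% of tested genes called) and -0.26 ± 0.092 in replicates 3 to 5 (adjusted p = 0.21). The difference between the sets, 0.70 ± 0.14, did not pass over all genes (edgeR unadjusted p = 0.000139, adjusted p = 0.0719), where 0.122% of tested genes did. Errfi1 (0.44 ± 0.14, edgeR adjusted p = 0.148) and Tsc22d3 (0.35 ± 0.11, edgeR adjusted p = 0.139) had differences of the same sign, and Hif3a had one of the opposite sign (-1.05 ± 0.49, edgeR adjusted p = 0.311), none of which passed. Fkbp5 was lower in KO in both sets, at -1.07 ± 0.12 in replicates 1 and 2 and -1.13 ± 0.099 in replicates 3 to 5.

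The KO and WT libraries were also compared within the sets after saline alone. In replicates 1 and 2 (2 KO and 2 WT libraries) 4 of the 10 genes had no overlap between genotypes, near the 33.0% of all tested genes. That count can therefore not be read as particular to the target genes. The 4 were Tsc22d3, Errfi1, Pdk4 and Ddit4, all with KO above WT. In replicates 3 to 5 (3 against 3) 8 of the 10 did not overlap, beside 26.6% of all tested genes. Hif3a, Zbtb16 and Klf9 had KO above WT there, and Tsc22d3, Errfi1, Pdk4, Ddit4 and Mt2 had KO below WT. Opposite orders in the sets, without overlap in either, were thus present for 4 of the 10 genes, beside 4.9% of all tested genes. The differences between the sets were 0.72 ± 0.20 (SE) for Ddit4, 0.50 ± 0.15 for Tsc22d3, 0.86 ± 0.38 for Pdk4 and 0.44 ± 0.19 for Errfi1. None passed (edgeR adjusted p = 0.553 each, unadjusted p from 0.00238 for Ddit4 to 0.0360 for Pdk4), and 0% of tested genes did. In replicates 1 and 2 of that fit, where 0.0974% of tested genes passed, none of the 10 genes was called after saline (smallest edgeR unadjusted p = 0.0146, for Tsc22d3).

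**Figure D4:**
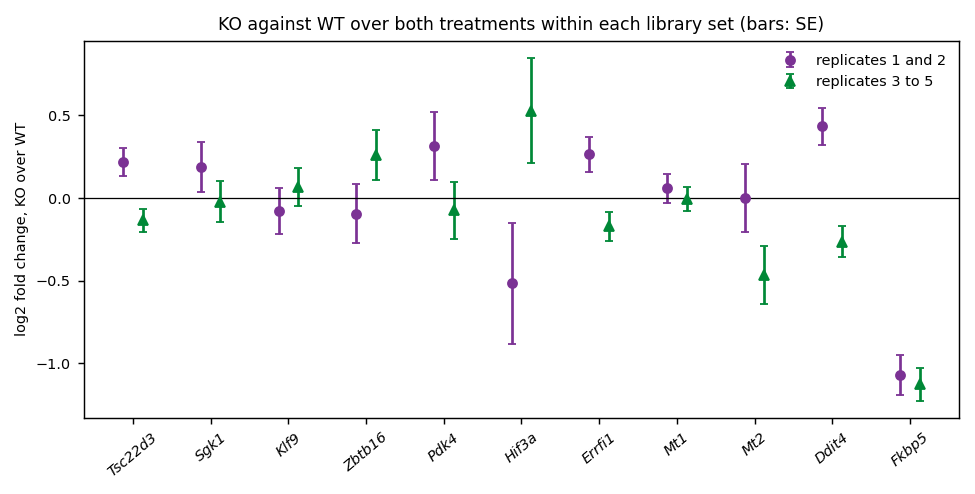
KO against WT log2 fold change over both treatments (y axis) in replicates 1 and 2 (circles) and in replicates 3 to 5 (triangles), with SE bars, from 1 edgeR fit of groups within sets. Ddit4 lies at 0.43 in replicates 1 and 2 and at -0.26 in replicates 3 to 5, while Fkbp5 lies at -1.07 and -1.13.

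Whether the target genes rise and fall together between libraries of a group was examined after subtracting from log2 CPM the mean of the libraries that shared its group and set. In replicates 1 and 2 the 2 residuals of each group are then equal with opposite signs. Each such pair holds a single contrast, so an r over 20 libraries rests on fewer independent values than 20. Of the 45 pairs, 21 had a Pearson r above 0, and r ran from -0.73 to 0.72 with a median of -0.099. None passed after Benjamini-Hochberg adjustment over the 45 pairs, and 5 had an exact permutation p under 0.05 (2-sided, 20736 rearrangements within group and set), all of them negative. The share among pairs of other genes was not computed, so the count and its sign cannot be read as particular to the target genes. Zbtb16 and Mt1 had r = -0.71 and rho = -0.73 over 20 libraries (exact permutation p = 0.00955, adjusted 0.341, r = -0.58 without the 2 libraries farthest from the median of Zbtb16). Over the 12 libraries of replicates 3 to 5 alone r was -0.38, while replicates 1 and 2 hold only 1 pair of libraries per group and are given no r of their own. Sgk1 and Mt2 had r = -0.70 and rho = -0.68 (exact permutation p = 0.0160, adjusted 0.341, r = -0.66 without 2 libraries) and -0.65 in replicates 3 to 5. The neighbours Mt1 and Mt2 had r = 0.63 and rho = 0.61 (exact permutation p = 0.0628, adjusted 0.398, r = 0.51 without 2 libraries) and 0.57 in replicates 3 to 5. Errfi1 and Ddit4 had the highest r, 0.72, with rho = 0.63 (exact permutation p = 0.0521, adjusted 0.391, r = 0.63 without 2 libraries) and 0.57 in replicates 3 to 5, which was -0.30 once 2 libraries were left out.

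**Figure D5:**
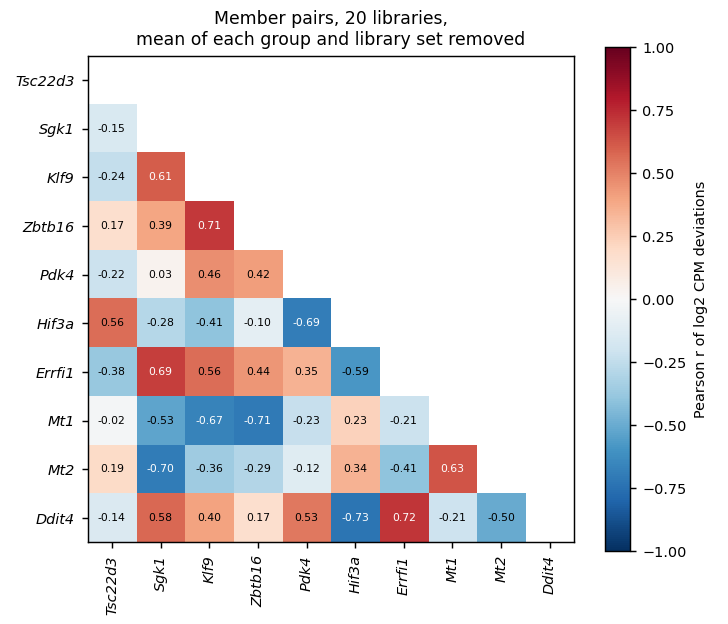
Pearson r (colour and printed value) for each pair of target genes over 20 libraries, from log2 CPM with the mean of each group and library set removed. Sgk1, Klf9, Errfi1 and Ddit4 have positive r with each other, and Mt1 and Mt2 have negative r with most of the other genes.

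The same was done against the scores of 17 gene lists (the mean over a list's genes of their residuals, each scaled to unit SD), 170 relations in all, of which 16 had an exact permutation p under 0.05 and 0 passed after adjustment. The share for other genes against the same lists was not computed either. Sgk1 followed the pyramidal neuron markers (r = 0.85, rho = 0.82, exact permutation p = 0.00260, adjusted 0.221, r = 0.83 without 2 libraries) and 0.76 in replicates 3 to 5. Errfi1 ran against the meningeal markers (r = -0.58, rho = -0.66, exact permutation p = 0.00188, adjusted 0.221, r = -0.64 without 2 libraries) and -0.55 in replicates 3 to 5. Pdk4 had r = 0.70 and rho = 0.68 with the astrocyte markers (exact permutation p = 0.0174, adjusted 0.483, r = 0.67 without 2 libraries) and 0.36 in replicates 3 to 5. Hif3a had r = 0.69 and rho = 0.68 with the meningeal markers (exact permutation p = 0.0382, adjusted 0.483, r = 0.61 without 2 libraries), but 0.15 in replicates 3 to 5.

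The tested genes whose residual pattern was most like each target gene over the 20 libraries, out of 16406 compared, are named as a description. For Klf9 they included Usp9x and Ralgapa1 (r = 0.98 each), for Pdk4 Nek7, Pou3f3 and Grm3 (0.94, 0.93 and 0.92), and for Ddit4 Mageh1, Mars and Bub3 (0.94 each). For Sgk1 they were AA414768, Ppm1g and Gm9234 (0.94, 0.90 and 0.90), for Errfi1 Gtf2b, Lrrtm1 and Eno1 (0.93, 0.93 and 0.92), and for Mt1 Il11ra1, Zcchc4 and Dele1 (0.91, 0.90 and 0.90). Zbtb16 was most like Retreg1, Lrrk2 and Synj2 (0.92, 0.91 and 0.91), Mt2 like 4632427E13Rik, Tmem231 and Zfp346 (0.93, 0.89 and 0.88), and Hif3a like Mgp, Osbpl6 and Gm49085 (0.89, 0.88 and 0.87). Tsc22d3 had the lowest values, 0.84 with Cd55, 0.83 with Prrg3 and 0.81 with Gm15627. No target gene was among the 3 closest of another, which 3 places out of 16406 genes made likely in advance. All of these correlations come from the same 20 libraries and share their composition.

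A second list of 26 genes that glucocorticoids induce was examined beside the 10. None was called by edgeR in any of the 7 comparisons, and at an unadjusted p under 0.05 there were 3 over both treatments in KO against WT (beside 4.79% of all tested genes), 2 after saline (2.67%), 2 after LPS (3.27%), 1 in the interaction (1.11%) and 0 in the LPS comparisons. Medians of the 26 log2 fold changes were 0.019 for KO against WT after saline and -0.055 after LPS, and 0.050 for LPS against saline in WT and -0.026 in KO. The smallest p belonged to Cdkn1a, the cell cycle inhibitor p21. Cdkn1a had 6.56, 5.89, 5.02, 5.48 and 3.82 CPM in KO LPS libraries and 5.68, 5.24, 6.01, 5.82 and 5.03 CPM in KO saline libraries. Its WT values were 7.10, 6.37, 7.09, 6.66 and 7.37 CPM after LPS and 8.87, 5.44, 9.34, 8.70 and 7.59 CPM after saline. The genotypes overlapped, with WT saline replicate 2 (5.44 CPM) inside the KO range and KO LPS replicate 1 (6.56 CPM) above WT LPS replicate 2 (6.37 CPM). The log2 fold change over both treatments was -0.44 ± 0.11 (SE, edgeR unadjusted p = 0.000451, adjusted p = 0.0814). It was -0.36 ± 0.15 after LPS (edgeR adjusted p = 1) and -0.52 ± 0.15 after saline (edgeR adjusted p = 0.534). Cdkn1a lies 0.573 Mb from Fkbp5 on chromosome 17, and the part of that position in the difference was not tested.

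The other genes of that list with the smallest p were Rasd1, a small GTPase (0.28 ± 0.11 in KO against WT over both treatments, edgeR adjusted p = 0.856), Sesn1, a stress-induced mTORC1 inhibitor (-0.17 ± 0.075, edgeR adjusted p = 0.926), and Mfsd2a, a lipid transporter of brain endothelium (0.31 ± 0.14 after saline, edgeR adjusted p = 1). After LPS the next smallest p values in KO against WT were those of Sesn1 (-0.26 ± 0.11) and Rasd1 (0.30 ± 0.16). Crispld2 had 3.31 ± 1.66 CPM in KO and 2.10 ± 0.44 CPM in WT after saline (SD, n = 5 each), or 0.65 ± 0.32 on the log2 scale (edgeR adjusted p = 1). For LPS against saline the 3 smallest p values were those of Sult1a1 (-0.38 ± 0.22), Sesn1 (-0.17 ± 0.11) and Gpd1 (-0.11 ± 0.073) in KO and of Cebpb (0.19 ± 0.11), Crispld2 (0.51 ± 0.32) and Angptl4 (-0.54 ± 0.35) in WT, and over both genotypes those of Gpd1 (-0.092 ± 0.051), Fam107a (-0.14 ± 0.084) and Nfkbia (0.10 ± 0.082). In the interaction they were Crispld2 (-0.97 ± 0.44), Sult1a1 (-0.64 ± 0.32) and Nedd9 (-0.33 ± 0.21). The receptor and its regulators, 10 genes that include Nr3c1, Nr3c2, Hsd11b1 and Fkbp4, also had 0 called in all 7 comparisons (edgeR), with medians of 0.14 for KO against WT after saline and 0.019 after LPS.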

How the data were processed

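Hippocampal RNA of 20 libraries was sequenced and deposited as raw counts per gene for 55536 Ensembl genes. Per the labels' protocols, RNA was taken with the RNeasy Plus Mini kit and libraries were made with NEBNext Ultra. Per the submitters' processing notes, Trimmomatic 0.38, FastQC, MultiQC and featureCounts 1.6.0 were used with mm10. The aligner, annotation release and strand setting are not given in the sources used here.

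From these counts, genes passing edgeR's filterByExpr were scaled by TMM and fitted together over 20 libraries with edgeR 4.0.16 (R 4.3.3, robust quasi-likelihood test, 4 group means). P-values were Benjamini-Hochberg adjusted over 16419 genes, with a threshold of 0.05. SE is the log2 fold change divided by the square root of F, and intervals are 95%. The code was tested on simulated data. Alternatives were DESeq2 1.42.0, limma-voom (limma 3.58.1), DESeq2 size factors, other filters, a replicate block, a library set term, each set alone, 17 libraries and each of 20 libraries left out. Fits with the groups split by set were chosen after seeing the data.

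Correlations used Python 3.11.15 with numpy 2.4.6 on log2 CPM with a prior count of 2, less the mean of the libraries sharing a group and set. Levels per kilobase used the union of exons of GENCODE annotation on mm10. The genes and lists were chosen with earlier results of these data known. The genes named in full are the 10 targets, plus, of the second list, the 3 with the smallest p in each comparison, and the 3 genes most alike in residual pattern, of which a gene is not reported here.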

Additional observations from a re-analysis of the deposited data

Results flagged for a closer look

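Of the 40 combinations of target gene and group, 6 held a library that stood apart from the other 4 by more than Dixon's 95% critical value (0.71 for 5 libraries). Chance alone flags about 1 in 20 when all 5 values come from 1 normal distribution. Here each group mixes both library sets, and the share flagged over all tested genes was not computed, so no excess can be read from the count. Klf9 was low in WT LPS replicate 1 (179 CPM), WT saline replicate 1 (176 CPM) and KO saline replicate 2 (209.5 CPM). Zbtb16 was high in KO saline replicate 1 (62.2 CPM), and Pdk4 was high in KO saline replicate 2 (14.4 CPM). Hif3a was high in WT LPS replicate 1 (9.82 CPM). All 6 are libraries of replicates 1 and 2.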

How the results depend on the processing

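Under 32 alternatives, 2210 estimates of the 10 genes were recomputed. Of these, 1961 kept their direction and their side of the threshold, 245 differed in sign without a call, 4 were newly called, and 0 reversed a called direction. All 4 new calls came from replicates 3 to 5 alone, where 3 genes passed in KO against WT over both treatments and 1 after saline, while the fit of all libraries called 0 of the 10. Outside those, the smallest adjusted p was 0.0688 (limma-voom, Mt2 in KO against WT after saline). With a replicate block 0 of the 10 genes passed (smallest adjusted p = 0.319), and pairing by number is not established, since nothing in the labels ties equal numbers together. With 1 library left out, 0 passed (smallest adjusted p = 0.484). Over all genes, KO against WT over both treatments called 72 genes, and 122 with DESeq2, 536 with limma-voom, 176 with the block, 152 with the set term, 10 in replicates 1 and 2 and 1257 in replicates 3 to 5. After saline it called 28, against 48, 362, 59, 47, 3 and 500 under the same alternatives, and after LPS 24, against 53, 62, 63, 54, 4 and 118. Hif3a, Mt2 and Pdk4 had the fewest counts, and the part of depth in the width of their intervals was not tested. With 5 libraries a group and no set term, 25 of 40 estimates had a 95% interval within 1.5-fold.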

Other observations

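Among the second list of glucocorticoid-induced genes, Glul, the glutamine synthetase of astrocytes, separated by genotype within replicates 3 to 5. It had 1834, 2006 and 1971 CPM in KO LPS libraries and 1794, 1959.9 and 1703 CPM in KO saline libraries, against 2316, 2256 and 2385 CPM in WT LPS and 2179, 2257 and 2675 CPM in WT saline libraries. In replicates 1 and 2 the genotypes overlapped, with 1022 to 1663 CPM in KO and 1226 to 1458 CPM in WT. Over all 20 libraries the KO against WT log2 fold change of Glul was -0.26 ± 0.17 (SE, edgeR unadjusted p = 0.135, adjusted p = 1). Glul was chosen after its values were seen. The share of all tested genes that separate in this way over both treatments was not computed. The separation can therefore not be read as particular to Glul. After saline alone, 26.6% of tested genes had no overlap between genotypes in replicates 3 to 5. Over both treatments, edgeR called 8.1% of the genes tested in replicates 3 to 5 alone.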
